A study of Mus musculus with 24 samples.

Results

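The acute-phase protein genes described here are Lrg1, Serpina3n, Lcn2, Saa3, Hp, Steap4 and A2m. They were taken by their symbols from a table of read counts for 33000 genes, in which each of the 7 has 1 row. They were chosen as genes known to be targets of IL-6 and STAT3, with earlier results of these data known. The counts come from 3'Pool-seq, which reads the 3' ends of polyadenylated transcripts, of frontal cortex RNA from 3 wild-type (WT) mice and 3 homozygous GFAP-IL6 mice. All 6 mice were 3 months old, carry the strain label C57BL/6 and were given no agent, and the labels name neither sex nor litter. In the GFAP-IL6 line a transgene places the cytokine gene Il6 under the promoter of Gfap, a gene of astrocytes, so that astrocytes make the cytokine inside the brain. Each mouse gave 4 libraries, since tagmentation, the step in which a transposase cuts the amplified cDNA and adds adapters, was run with 2 ng and with 1 ng of it, each in a set A and a set B. The labels do not say what separates the sets. The paper describes pooling samples before this step, so that tagmentation acts on pools and not on single samples. The libraries of a mouse share its RNA, so the mouse was the replicate (n = 3 per genotype), and the 4 libraries of each mouse were summed for the main comparison.

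Acute-phase proteins are plasma proteins whose synthesis rises or falls with inflammation, mostly in liver. IL-6 binds its receptor together with the shared subunit gp130, JAK kinases then phosphorylate STAT3, and STAT3 acts with factors of the C/EBP and NF-kappaB families at the promoters of these genes. In brain several of them are known to be made by reactive astrocytes, microglia, endothelial cells or infiltrating neutrophils rather than by hepatocytes.

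Lrg1, Lcn2 and Saa3 were higher in GFAP-IL6 cortex, by 2.61, 3.67 and 3.21 on the log2 scale, and each met both thresholds for a differentially expressed gene (DEG), which were 0.05 for the adjusted p and 1 for the size of the log2 fold change (edgeR quasi-likelihood test, n = 3 mice per genotype). Serpina3n was also higher, by 0.98 on the log2 scale, which passed the threshold on p and lay just under that on the fold change. The level of A2m overlapped between the genotypes, and the few reads of Hp and Steap4 showed no detectable difference.

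Of the 14621 genes tested in the summed libraries 180 were DEGs (1.23%), 176 of them higher in GFAP-IL6 mice (1.20%), and the median log2 fold change of all genes tested was -0.00691. Of the 7 acute-phase genes 5 had enough reads to be tested, and 3 of the 7 were DEGs, all higher. At an unadjusted p under 0.05 by edgeR there were 1279 of the 14621 genes, 917 of them higher and 362 lower. With the adjusted p alone, 263 genes passed (1.80%), 255 of them higher (1.74%), and 4 of the 7 acute-phase genes were among the latter. In 1232 genes tested (8.43%) the 3 GFAP-IL6 mice lay above the 3 WT mice without overlap, and this held for the same 4 acute-phase genes. Lcn2 and Saa3 had too few reads in WT mice to pass the filter on low counts there and were tested because of their level in GFAP-IL6 mice, so the counts over tested genes say nothing about acute-phase genes that are low in both genotypes.

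Between 1524165 and 12256374 reads were counted per library, and between 7852743 and 37582644 per mouse. The mouse with the most reads was GFAP-IL6 mouse 3 and the one with the fewest was WT mouse 3. WT mouse 3 also stood apart in its tissue: the 8 choroid plexus markers summed to 4078 CPM in this mouse (CPM, a share of the reads of the mouse, with totals scaled by TMM factors), against 107 and 162 in the other WT mice and 79.2 to 754 in GFAP-IL6 mice. Ttr, the thyroid hormone carrier that choroid plexus epithelium makes in bulk, was at 4035 of these 4078 CPM. Neuron markers summed to 6090 to 7207 CPM and oligodendrocyte markers to 5663 to 8798 CPM over the 6 mice, with 0 of 8 and 0 of 7 DEGs by edgeR, by DESeq2 and by limma, and 0 in each list at an unadjusted p under 0.05. Without WT mouse 3 the DEGs numbered 174, and the acute-phase genes among them were again 3. The targeted gene, Il6, was at 0.142 ± 0.132 CPM in WT mice and at 2.99 ± 1.33 CPM in GFAP-IL6 mice (SD, n = 3), from 0 to 5 reads in a WT mouse and from 30 to 163 reads in a GFAP-IL6 mouse. Reads of the transgene and of the endogenous gene cannot be told apart in these counts.

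On the mouse genome build mm10, Lrg1 (ENSMUSG00000037095.7) lies on chromosome 17 from 56119678 to 56122001 on the minus strand, in 2 exons. Saa3 (ENSMUSG00000040026.7) lies on chromosome 7 from 46711998 to 46715700 on the minus strand, in 4 exons. Lcn2 (ENSMUSG00000026822.12) lies on chromosome 2 from 32384633 to 32388252 on the minus strand, in 6 exons. Serpina3n (ENSMUSG00000021091.8) lies on chromosome 12 from 104406729 to 104414329 on the plus strand, in 5 exons, among its Serpina3 paralogs. Hp (ENSMUSG00000031722.9) lies on chromosome 8 from 109575128 to 109579172 on the minus strand, Steap4 (ENSMUSG00000012428.9) on chromosome 5 from 7960457 to 7982213 on the plus strand, and A2m (ENSMUSG00000030111.8) on chromosome 6 from 121635376 to 121679227 on the plus strand. No other annotated gene overlaps any of the 7. The last 300 nt of each transcript, at the end toward which 3'Pool-seq reads are skewed, had no near-identical copy elsewhere (at least 97% identity over at least 100 nt). The closest was Serpina3c, with 79.3% identity to Serpina3n over 266 nt. Sequence further from the transcript end, where reads can also fall, was not searched.

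Lrg1, Serpina3n and Saa3 were higher together, while Steap4 had too few reads to be tested and showed no detectable difference. For this reason the reference sequence before the start of each is shown. It was taken from RefSeq on GRCm38.p6 and ends where the annotated exons begin. RefSeq entries were matched for 5 of the 7 genes, the fifth being Lcn2, which is not printed since most of its window lies in annotated exons. This window, chr2:32387740-32387989, lies inside the annotated gene and not before its start. Capitals mark matches to the STAT motif TTCNNNGAA and to the C/EBP motif TTNNGNAA, searched on both strands in the 250 bases before the start. The regions are chr17:56122002-56122196 on the minus strand for Lrg1, chr12:104406458-104406707 on the plus strand for Serpina3n, chr7:46715701-46715926 on the minus strand for Saa3, and chr5:7960222-7960456 on the plus strand for Steap4.
Lrg1: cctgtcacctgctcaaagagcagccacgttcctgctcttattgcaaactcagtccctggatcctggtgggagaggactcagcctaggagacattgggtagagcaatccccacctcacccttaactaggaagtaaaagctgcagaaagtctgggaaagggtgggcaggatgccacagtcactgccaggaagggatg
Serpina3n: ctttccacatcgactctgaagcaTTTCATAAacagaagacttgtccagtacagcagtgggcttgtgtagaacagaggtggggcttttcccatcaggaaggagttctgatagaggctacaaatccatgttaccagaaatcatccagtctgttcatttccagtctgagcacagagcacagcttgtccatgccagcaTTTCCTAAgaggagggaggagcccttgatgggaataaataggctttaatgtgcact
Saa3: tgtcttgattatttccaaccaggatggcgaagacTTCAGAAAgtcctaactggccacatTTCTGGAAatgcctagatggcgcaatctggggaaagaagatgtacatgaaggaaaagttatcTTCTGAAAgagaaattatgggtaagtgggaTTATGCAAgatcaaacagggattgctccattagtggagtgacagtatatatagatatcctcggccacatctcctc
Steap4: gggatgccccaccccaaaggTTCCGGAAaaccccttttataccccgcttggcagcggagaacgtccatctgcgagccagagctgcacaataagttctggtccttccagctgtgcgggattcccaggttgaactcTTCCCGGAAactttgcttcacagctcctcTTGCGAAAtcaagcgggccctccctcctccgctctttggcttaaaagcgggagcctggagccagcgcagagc

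The Steap4 promoter held the STAT motif, as TTCCCGGAA from 116 to 108 bases before the start. No match was found before Lrg1, Serpina3n or Saa3, or in the window of Lcn2, which lies inside the annotated gene. The motif is found in 7.02% of 32851 mouse promoters of this length, and its narrower form TTCCNGGAA, which the Steap4 match also fits, in 0.913%. The C/EBP motif was found 4 times before Saa3, 2 times before Serpina3n and before Steap4, 1 time in the window of Lcn2 and not before Lrg1. At least 1 match was found in 36.8% of all promoters. The NF-kappaB motif was found 2 times before Steap4, 1 of these overlapping a C/EBP match, and in none of the others, against 7.25% of all promoters. These matches are letters in a window and not measured sites, and no match says only that the letters are not in these 250 bases.

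Lrg1 encodes leucine-rich alpha-2-glycoprotein, a secreted protein known to modulate TGF-beta signalling in endothelial cells. Its level in the 3 WT mice was 15.8, 12.2 and 10.9 CPM, and in the 3 GFAP-IL6 mice 65.6, 86.0 and 89.9 CPM. The lowest GFAP-IL6 mouse was thus far above the highest WT mouse, and both groups varied little, with coefficients of variation of 19.4% and 16.2%. The means were 12.96 ± 2.51 and 80.5 ± 13.1 CPM (SD, n = 3), a ratio of 6.21. The log2 fold change was 2.61 ± 0.15 (SE, adjusted p = 8.73e-08 by edgeR). Lrg1 was read deeply enough to be seen in each library, with 14 to 107 reads in the 12 WT libraries and 124 to 1073 in the 12 GFAP-IL6 libraries.

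Saa3 encodes a serum amyloid A protein that, unlike its liver relatives, is known to be made by macrophages and other cells outside the liver. Its level was 0.208, 0 and 0.262 CPM in the WT mice, from 4, 0 and 2 reads, and 1.05, 0.911 and 1.79 CPM in the GFAP-IL6 mice, from 10, 19 and 69 reads. The groups did not overlap, but the WT values lie near the level of 3 reads, which was 0.157 to 0.382 CPM in these mice. The rate of reads was 10.9 times higher in GFAP-IL6 mice, with an exact 95% interval of 4.83 to 30.4 that covers counting error only. The log2 fold change was 3.21 ± 0.68 (SE, adjusted p = 0.0218 by edgeR). This call was lost, with the direction kept, when GFAP-IL6 mouse 3, WT mouse 1 or WT mouse 2 was left out (adjusted p = 0.29, 0.0597 and 0.118 by edgeR). The liver forms Saa1 and Saa2 had 9 and 8 reads in all WT mice and 19 and 20 in all GFAP-IL6 mice, and Saa4 had none.

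Lcn2 encodes lipocalin 2, which binds iron-carrying siderophores and is known both from reactive astrocytes and from the granules of neutrophils. The WT mice had 8, 4 and 3 reads, or 0.416, 0.222 and 0.393 CPM. The GFAP-IL6 mice had 16, 137 and 162 reads, or 1.69, 6.57 and 4.199 CPM. All GFAP-IL6 mice were above all WT mice, and they differed among themselves more than for Lrg1 or Saa3. Mouse 1 was the lowest and mouse 2 the highest, and the coefficient of variation was 58.8%. The log2 fold change was 3.67 ± 0.50 (SE, adjusted p = 0.000623 by edgeR), and the rate of reads was 14 times higher (exact 95% interval 8.36 to 25.3, counting error only).

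Neutrophils are a known source of Lcn2. Of 14 neutrophil markers 4 were tested and 1 was a DEG, Csf3r, the receptor for granulocyte colony-stimulating factor, at 0.728, 2.16 and 0.525 CPM in the WT mice and 3.48, 4.12 and 6.51 CPM in the GFAP-IL6 mice. Csf3r lost its call without GFAP-IL6 mouse 3 (adjusted p = 0.152 by edgeR), without WT mouse 1 (0.0741) and after thinning to equal totals (0.065). The 4 tested markers all had positive log2 fold changes, from 0.55 to 1.97. Among the untested ones, Mpo and Elane had lower means in GFAP-IL6 mice, at 0.0783 and 0 CPM against 0.210 and 0.0369 CPM. Ngp, Camp, Ltf, Retnlg, Cxcr2 and Stfa2l1 had higher means there, and all of these rest on few reads. The 14 markers summed to 1.18 to 6.81 CPM in WT mice and to 6.53 to 13.7 CPM in GFAP-IL6 mice. Csf3r alone gave 0.525 to 2.16 and 3.48 to 6.51 CPM of these sums. Of the 14, Ly6g and Mmp8 were at 0 reads in every mouse. S100a8 and S100a9, which neutrophils make in bulk, had log2 fold changes of 0.60 and 0.55 (adjusted p = 0.834 and 0.91 by edgeR). The level of Csf3r was highest in GFAP-IL6 mouse 3 and that of Lcn2 in GFAP-IL6 mouse 2. The part of such cells in the result for Lcn2 was not tested, and in RNA of a whole tissue more cells of a type and more RNA per cell cannot be told apart.

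**Figure D1:**
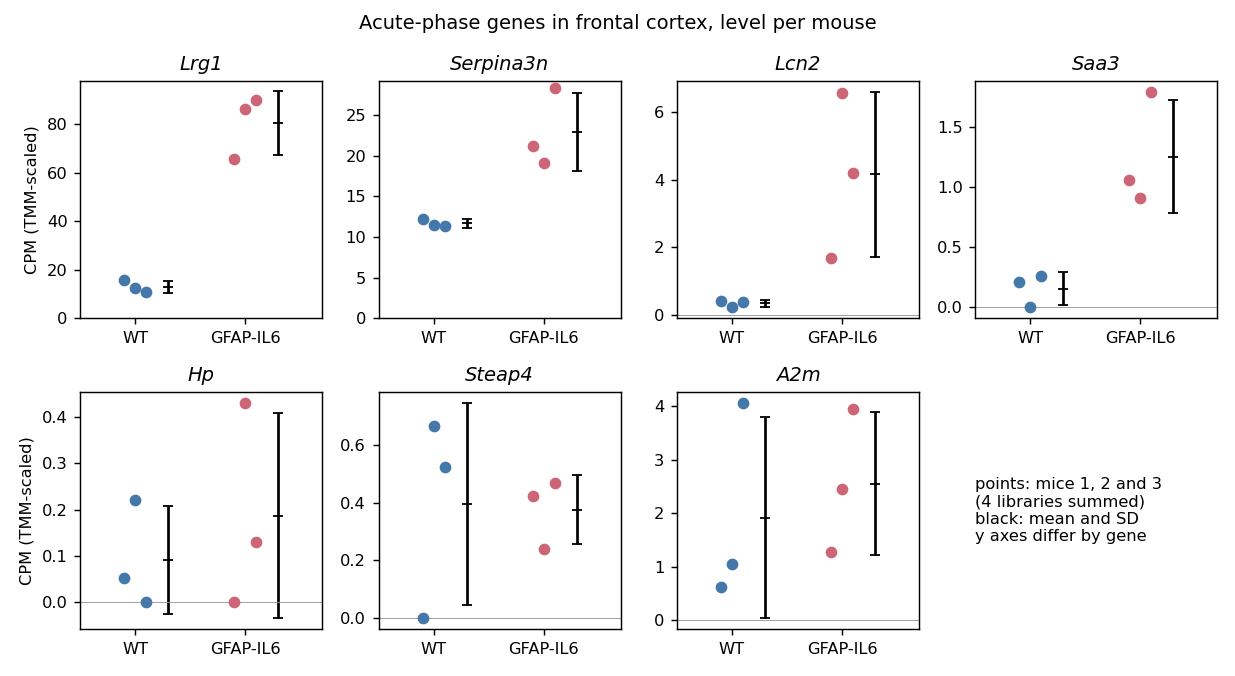
Level in CPM, scaled by TMM factors, of the 7 acute-phase genes in each mouse, with WT mice in blue, GFAP-IL6 mice in red, and the mean and SD of each genotype (n = 3) in black; the y axes differ by gene. The GFAP-IL6 mice lie above the WT mice for Lrg1, Serpina3n, Lcn2 and Saa3, and the genotypes overlap for Hp, Steap4 and A2m.

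Serpina3n encodes a secreted inhibitor of serine proteases and is widely used as a marker of reactive astrocytes. Its level was 12.2, 11.5 and 11.3 CPM in the WT mice, the smallest relative spread of the 7 genes in WT mice (coefficient of variation 4.28%). The GFAP-IL6 mice were at 21.2, 19.1 and 28.3 CPM, all above the WT mice, and mouse 3 was the highest. The means of 11.7 ± 0.499 and 22.9 ± 4.82 CPM (SD, n = 3) give a ratio of 1.96. The log2 fold change of 0.98 ± 0.15 (SE, adjusted p = 0.00166 by edgeR) was therefore not a DEG by the threshold of 1. It lay so close to that threshold that 5 of 13 other settings put it above, with fold changes between 0.78 and 1.10 over all 13. The lowest came without GFAP-IL6 mouse 3 and the highest without GFAP-IL6 mouse 2.

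The other Serpina3 genes were nearly silent in this tissue. Of the 10 listed genes of this cluster with a row in the table only Serpina3n was tested, 4 had 0 reads in all 6 mice, and Serpina3g, the next most read, had 3 reads in WT and 10 in GFAP-IL6 mice.

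A2m encodes alpha-2-macroglobulin, a broad protease inhibitor that is a strong acute-phase protein in rat liver and much less so in mouse. Its level was 0.624, 1.05 and 4.07 CPM in the WT mice and 1.27, 2.45 and 3.94 CPM in the GFAP-IL6 mice. The highest WT mouse was above every GFAP-IL6 mouse and the other WT mice were below, so the genotypes overlapped. The log2 fold change of 0.77 ± 0.54 (SE, adjusted p = 0.773 by edgeR) did not pass the test. The high WT mouse was mouse 3, the one with the high choroid plexus markers. Without it the log2 fold change of A2m was 1.71 (adjusted p = 0.0909 by edgeR), which still did not pass the threshold on p. GFAP-IL6 mouse 3, next after it in level of A2m, had the lowest sum of choroid plexus markers of all 6 mice, 79.2 CPM. The part of choroid plexus tissue in these levels was not tested.

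Hp encodes haptoglobin, which binds free hemoglobin, and it was barely read in cortex. The WT mice had 1, 4 and 0 reads and the GFAP-IL6 mice 0, 9 and 5 reads, so that each group held a mouse with none. Over all mice of a genotype the rate of reads was 1.87 times higher in GFAP-IL6 mice, with an exact 95% interval of 0.636 to 6.62 from counting error alone. A difference was not detectable at this depth.

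Steap4 encodes a membrane metalloreductase that reduces iron and copper and responds to inflammation in fat and liver. The WT mice had 0, 12 and 4 reads, or 0, 0.664 and 0.525 CPM, and the GFAP-IL6 mice 4, 5 and 18 reads, or 0.422, 0.240 and 0.467 CPM. The WT mice held both the lowest and the highest level, and the ratio of read rates was 1.13 (exact 95% interval 0.585 to 2.24, counting error only). This interval does not reach the log2 fold changes fitted for Lrg1, Lcn2 or Saa3, but it leaves out the spread between mice. Among its paralogs Steap1, Steap2 and Steap3, 0 of 3 were DEGs or passed an unadjusted p under 0.05 by edgeR, and DESeq2 and limma called none. Like A2m, Steap1 was highest in WT mouse 3, at 6.82 CPM against 0.259 to 1.37 CPM in the other 5 mice.

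Two-sided exact permutation tests over the 3 WT and 3 GFAP-IL6 mice gave p = 0.1 for each of Lrg1, Serpina3n, Lcn2 and Saa3, which is the smallest value that 3 mice against 3 can give. The same exact test gave p = 0.5 for A2m, 0.7 for Hp and 1.0 for Steap4.

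Divided by gene length, the mean levels in WT cortex were 9.59 CPM per kb for Lrg1 and 5.65 for Serpina3n, and between 0.0679 and 0.41 for the other 5. In GFAP-IL6 cortex they were 59.6 CPM per kb for Lrg1, 11.1 for Serpina3n, 4.54 for Lcn2 and 2.36 for Saa3, with A2m at 0.546, Hp at 0.139 and Steap4 at 0.119. Lrg1 and Serpina3n thus held the top places in both genotypes. Lcn2 and Saa3 lay below A2m in WT mice, by less than the SD of A2m, and above it in GFAP-IL6 mice. Since 3'Pool-seq reads transcript ends, a division by length also lowers the values of long transcripts such as A2m and Steap4. Without it the order of Saa3 and A2m in GFAP-IL6 mice turns, at 1.25 ± 0.471 and 2.55 ± 1.34 CPM (SD, n = 3). That of Hp and Steap4 in GFAP-IL6 mice turns too, at 0.187 and 0.376 CPM. In WT mice Steap4, at 0.396 CPM, then lies above Lcn2 and Saa3, at 0.344 and 0.157 CPM, and below both when divided by length.

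Each of the 4 sets was then compared on its own, which shows how the acute-phase genes behave at the depth of single libraries. Of the genes tested, 83 of 12190 were DEGs with 2 ng in set A (0.681%, all higher in GFAP-IL6) and 96 of 12407 with 1 ng (0.774%, or 0.758% higher). Set B gave 91 of 12233 with 2 ng (0.744%, or 0.736% higher) and 98 of 12974 with 1 ng (0.755%, or 0.748% higher). Lrg1 was a DEG in all 4 sets, Serpina3n in the 2 sets with 1 ng, and Lcn2 in set B with 1 ng, where alone it had enough reads to be tested. Saa3, Hp and Steap4 were not tested in any set. Levels above those of every WT library of the set were seen in all 3 GFAP-IL6 libraries in 4 of 4 sets for Lrg1, Serpina3n and Lcn2, in 3 of 4 for Saa3 and in none for Hp, Steap4 and A2m. The share of all genes tested with such a separation was 7.07%, 6.93%, 6.78% and 7.05% in the same order of sets.

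Lrg1 had log2 fold changes of 2.85, 2.60, 2.51 and 2.56 in these sets, with SE of 0.16 to 0.20. The highest means in both genotypes came with 2 ng in set B, with levels up to 19.6 CPM in WT and 104 CPM in GFAP-IL6 libraries. Among the mice, WT mouse 3 varied most between its 4 libraries, from 6.77 to 19.6 CPM on 14 to 29 reads, a coefficient of variation of 48.9% against 7.21% to 18.8% in the other 5 mice.

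Serpina3n had log2 fold changes of 0.89, 1.09, 0.99 and 1.02 in the same sets (adjusted p = 0.0582, 0.0125, 0.00822 and 0.00876 by edgeR). The values lie on either side of 1, and the difference between the sets with 2 ng and those with 1 ng was -0.11 (95% interval -0.47 to 0.25, adjusted p = 1.0 by edgeR), so a difference between the cDNA amounts was not shown. GFAP-IL6 mouse 3 had the highest level in each set, 26.7 to 30.7 CPM, against 16.6 to 26.4 CPM in the other GFAP-IL6 mice.

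Lcn2 ranged from 0 to 3 reads in the WT libraries, and from 2 to 49 reads in the GFAP-IL6 libraries. GFAP-IL6 mouse 2 had the highest level in each set, 4.88 to 7.80 CPM, followed by mouse 3 with 2.77 to 6.13 CPM and mouse 1 with 0.991 to 2.06 CPM. The order of the 3 mice was therefore the same in all 4 sets, unlike for Serpina3n, for which mouse 3 led. In the set where it was tested, the log2 fold change of Lcn2 was 3.33 ± 0.62 (SE, adjusted p = 0.00541 by edgeR).

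**Figure D2:**
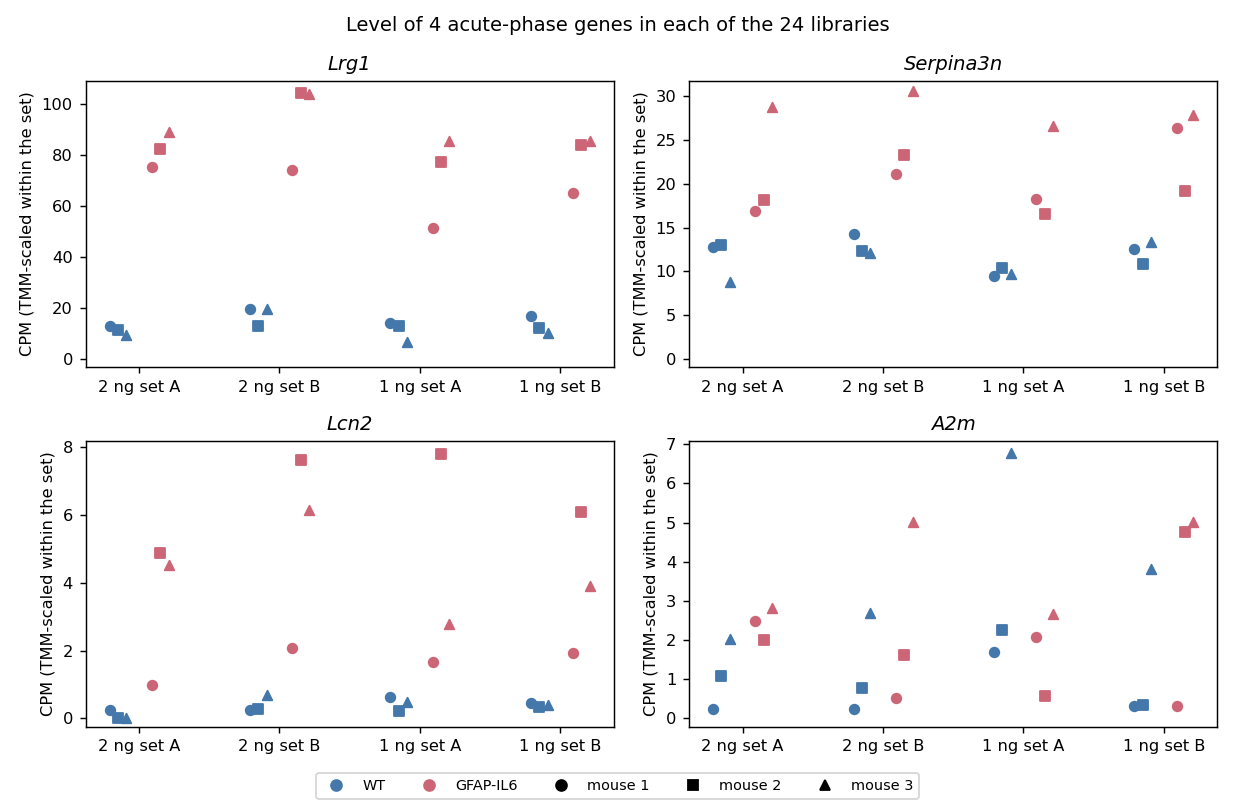
Level in CPM, scaled by TMM factors within each set, of Lrg1, Serpina3n, Lcn2 and A2m in each of the 24 libraries, by set, with genotype as color and mouse as symbol. GFAP-IL6 mouse 2 had the highest Lcn2 and GFAP-IL6 mouse 3 the highest Serpina3n in each set, while the order of mice for A2m changed between sets.

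Saa3 had at most 2 reads in a WT library and 1 to 21 in a GFAP-IL6 library, and 18 of the 24 libraries had 3 reads or fewer. The set without separation was set B with 2 ng, where WT mouse 3 was at 1.35 CPM from 2 reads. Hp had 3 reads or fewer in 23 and Steap4 in 19 of the 24 libraries, so single libraries said little about either.

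A2m moved in opposite directions in the sets where it was tested, with log2 fold changes of -0.73 ± 0.58 in the A set and 1.84 ± 0.76 in the B set made with 1 ng (SE, adjusted p = 0.907 and 0.571 by edgeR). WT mouse 3 had the highest WT level in each set, 2.03 to 6.77 CPM from 3 to 14 reads. Within mice, the genotype difference was 1.85 higher in the B sets than in the A sets (95% interval 0.68 to 3.02, adjusted p = 0.417 over all genes tested by edgeR), which did not pass.

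With each mouse as its own control, the genotype difference depended on the cDNA amount in 0 of 13249 genes tested (0.00%) and on the set letter in 0 (0.00%) by edgeR and by limma, with 385 and 921 genes at an unadjusted p under 0.05 by edgeR. For Lrg1 the difference changed by 0.09 (95% interval -0.20 to 0.38) between the amounts and by -0.17 (-0.46 to 0.12) between the letters, both small against the genotype difference itself. For Lcn2 the intervals were wide, -0.60 to 2.80 between the amounts and -1.44 to 1.25 between the letters. Within mice, 3457 of the 13249 genes (26.1%) differed between 2 ng and 1 ng. Lrg1 was among them, at 0.18 ± 0.06 higher with 2 ng on the log2 scale (SE, adjusted p = 0.034 by edgeR). Serpina3n differed by 0.09 (95% interval -0.08 to 0.25), Lcn2 by 0.08 (-0.40 to 0.56) and A2m by -0.42 (-1.03 to 0.18), none of which passed. Since the paper describes tagmentation of pooled samples, libraries of the same set are not separate repeats of a cDNA amount. The tests of 2 ng against 1 ng leave out the spread between pools. A difference between pools cannot be told apart here from one between amounts.

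**Figure D3:**
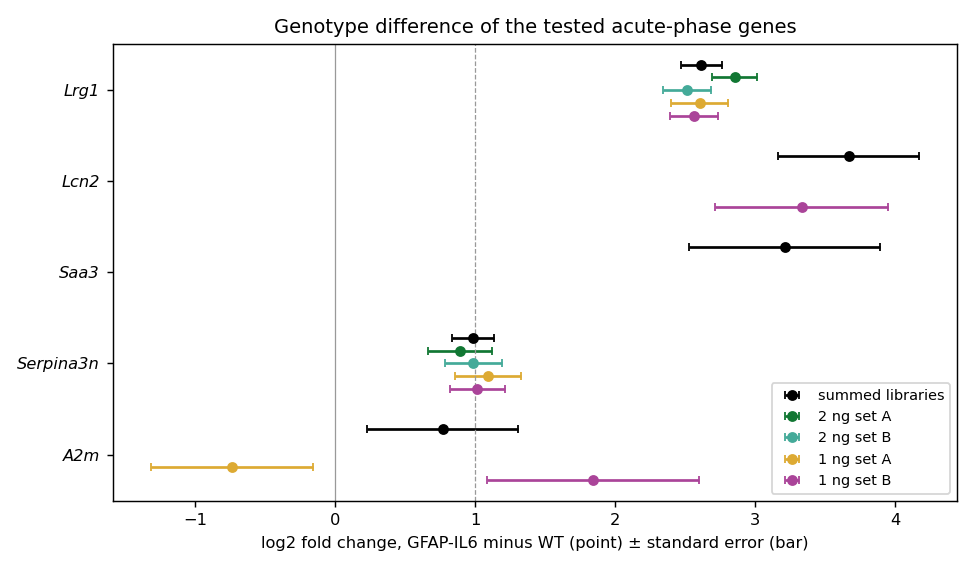
Log2 fold change between GFAP-IL6 and WT mice, with its standard error, for the 5 acute-phase genes that could be tested, in the summed libraries and in each set where the gene passed the filter on low counts; the dashed line marks a log2 fold change of 1. Lrg1 lies between 2.51 and 2.85 in each fit, Serpina3n between 0.89 and 1.09 on both sides of the line, and A2m on both sides of 0.

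The other positive acute-phase genes, those known to rise with inflammation, were mostly too low in cortex to be tested. Of 40 listed, 12 were tested, and another 12 had 0 reads in every mouse, among them Apcs, Orm1, Orm2, Fga and Fgb. DEGs were C4b, a complement component, at 4.60 ± 0.349 CPM in WT and 57.3 ± 18.6 CPM in GFAP-IL6 mice (SD, n = 3, log2 fold change 3.64), and Cd14, a lipopolysaccharide co-receptor, with a log2 fold change of 1.37. Cp, which encodes the copper-carrying ferroxidase ceruloplasmin, and Itih3, of the inter-alpha-trypsin inhibitor family, passed the adjusted p alone, with log2 fold changes of 0.87 and 0.54 (adjusted p = 0.0408 and 0.0319 by edgeR). These passes depended on single mice: leaving out 1 mouse gave Cp an adjusted p of up to 0.266 and Itih3 one of up to 0.355 by edgeR, both without GFAP-IL6 mouse 3. Cp was also over the threshold without WT mouse 1 (0.0931), WT mouse 3 (0.0651) or GFAP-IL6 mouse 2 (0.164), and Itih3 without WT mouse 1 (0.0794), WT mouse 2 (0.148), WT mouse 3 (0.0547) or GFAP-IL6 mouse 2 (0.0659). The median log2 fold change of the 12 was 0.66. Of the negative acute-phase genes, which fall in inflamed liver, 6 of 9 were tested, with 0 DEGs by edgeR, DESeq2 and limma, 0 at an unadjusted p under 0.05, and a median log2 fold change of 0.06.

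Hepatocyte markers were at or near 0 for the most part. Of 12 listed, 5 (Ahsg, Serpina1c, Fgb, Fga and Tat) had 0 reads, Alb had 4 reads in WT and 1 in GFAP-IL6 mice, and the list summed to 7.42 to 9.78 CPM in WT and 6.32 to 7.91 CPM in GFAP-IL6 mice. Of the 3 tested, 0 were DEGs by edgeR, DESeq2 or limma and 0 had an unadjusted p under 0.05. Blood markers summed to 751 to 1034 CPM in WT and 703 to 958 CPM in GFAP-IL6 mice, with 0 of 5 DEGs by each tool and 1 at an unadjusted p under 0.05.

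In the IL-6 and STAT3 pathway all 23 listed genes were tested and 5 were DEGs, all higher. Beside Il6 itself (log2 fold change 4.06) these were Osmr, the oncostatin M receptor subunit (2.08), Socs3, a feedback inhibitor of the pathway (1.62), Cebpd, a C/EBP factor (1.25), and Il4ra, a receptor subunit for IL-4 and IL-13 (1.17). Socs3 was at 1.04, 1.16 and 1.31 CPM in WT mice and at 2.003, 2.78 and 5.29 CPM in GFAP-IL6 mice. It lost its call without GFAP-IL6 mouse 3 (log2 fold change 1.08, adjusted p = 0.572 by edgeR), GFAP-IL6 mouse 2 (0.0557), WT mouse 1 (0.138) or WT mouse 2 (0.128), and after thinning to equal totals (0.398). Il4ra lost its call without GFAP-IL6 mouse 3 (log2 fold change 0.88, adjusted p = 0.242 by edgeR), GFAP-IL6 mouse 2 (0.0542) or WT mouse 2 (0.082). Cebpd fell under the fold threshold after thinning, at 0.95. The receptor gene Il6ra, the gp130 gene Il6st and Stat3 had log2 fold changes of 0.62, 0.32 and 0.49, which did not pass (adjusted p = 0.253, 0.452 and 0.0686 by edgeR). Stat3 did pass the threshold on p alone by DESeq2 (adjusted p = 0.0366) and by limma (0.000873). By edgeR it did so with no filter on low counts (0.00251) and without GFAP-IL6 mouse 2 (0.0347). Without GFAP-IL6 mouse 3 its adjusted p was 0.57 by edgeR. The median log2 fold change of the list was 0.34, with 12 of 23 genes higher at an unadjusted p under 0.05. Over all 14621 genes tested, 917 were higher at this threshold.

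Of 14 genes for partners and receptors of the acute-phase proteins 12 were tested, and 0 were DEGs by edgeR, DESeq2 or limma. Their median log2 fold change was 0.435, and 3 were higher at an unadjusted p under 0.05. These were Tlr4, Tlr2 and Tgfbr2, with log2 fold changes of 2.13, 1.52 and 0.59 (adjusted p = 0.146, 0.119 and 0.383 by edgeR). Slc22a17, a receptor for lipocalin 2, was at 641 ± 44.8 CPM in WT and 610 ± 5.64 CPM in GFAP-IL6 mice (SD, n = 3), and Lrp1, a receptor for complexes of alpha-2-macroglobulin, at 64.1 ± 10.2 and 63.6 ± 4.70 CPM. Lrp2, another lipocalin receptor, had 0 reads in every mouse.

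Among markers of the cells that could hold these transcripts, 1 of 10 astrocyte markers was a DEG, Gfap, at 19.95 ± 3.78 CPM in WT and 110 ± 33.4 CPM in GFAP-IL6 mice (SD, n = 3, log2 fold change 2.44). The list as a whole summed to 3422 to 3511 CPM in WT and 3790 to 3957 CPM in GFAP-IL6 mice. Aldoc alone was at 1597 to 1753 CPM in WT and 1825 to 2000 CPM in GFAP-IL6 mice. Log2 fold changes in the list ran from -0.0958 to 2.44, with a median of 0.137. Of 9 microglia markers 3 were DEGs, Itgam, C1qa and Aif1, with log2 fold changes of 1.6, 1.39 and 1.22, and 7 passed the adjusted p alone. They summed to 381 to 428 CPM in WT and 621 to 802 CPM in GFAP-IL6 mice, with a median log2 fold change of 0.72. Of 10 endothelial markers 1 was a DEG, Vwf, the von Willebrand factor gene (log2 fold change 2.22). Of these 10, 3 passed the adjusted p alone, 7 were higher at an unadjusted p under 0.05, the median log2 fold change was 0.72, and the list summed to 134 to 136 CPM in WT and 164 to 255 CPM in GFAP-IL6 mice. Of 8 pericyte and mural cell markers 0 were DEGs by edgeR, DESeq2 and limma, and 1 passed the adjusted p alone, Rgs5 (log2 fold change 0.52, adjusted p = 0.0206 by edgeR), the only one at an unadjusted p under 0.05. These markers summed to 150.0 to 189 CPM in WT and 196 to 230 CPM in GFAP-IL6 mice, with a median log2 fold change of 0.155. Rgs5 alone was at 44.2 to 58.0 CPM in WT and 65.3 to 75.4 CPM in GFAP-IL6 mice. The summed level of each of these lists was higher in every GFAP-IL6 mouse than in any WT mouse, as were Lrg1, Saa3, Lcn2 and Serpina3n. Such a sum follows the most abundant genes of its list. Single genes of the astrocyte, microglia and pericyte lists had negative log2 fold changes. The part of these cells in the results for the acute-phase genes was not tested.

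Border macrophage markers summed to 13.2 to 15.6 CPM in WT and 11.5 to 15.9 CPM in GFAP-IL6 mice, with 0 of 7 DEGs by edgeR, DESeq2 and limma and 1 lower at an unadjusted p under 0.05. Meningeal fibroblast markers summed to 39.7 to 74.6 CPM in WT and 44.2 to 68.3 CPM in GFAP-IL6 mice, with 0 of 7 DEGs by the same tools and 0 at an unadjusted p under 0.05. Choroid plexus markers had 0 of 6 DEGs by the same tools, 1 lower at an unadjusted p under 0.05, and a median log2 fold change of -1.32, with WT mouse 3 at 4078 CPM over the list.

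**Figure D4:**
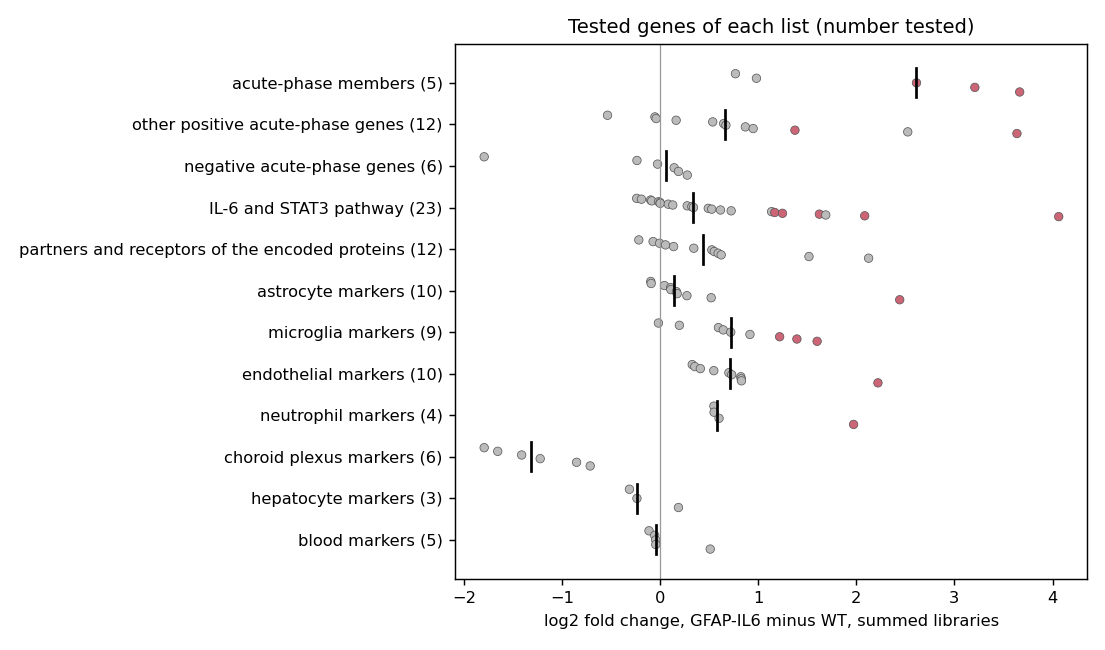
Log2 fold change between GFAP-IL6 and WT mice in the summed libraries for each tested gene of 12 of the gene lists, as a point, with DEGs in red and the list's median as a black bar; the number tested stands after each name. The 5 tested acute-phase genes have a median of 2.61, which leaves out Hp and Steap4. Among these 5, Lcn2 and Saa3 passed the filter on low counts through their level in GFAP-IL6 mice. The tested genes of the other positive acute-phase list have a median of 0.66, and those of the choroid plexus markers of -1.32.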

How the data were processed

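The data are 3'Pool-seq libraries of frontal cortex, 4 from each of 3 WT and 3 GFAP-IL6 mice. The authors removed polyA from read ends, aligned with STAR 2.4 and deposited raw read counts per gene from featureCounts, with no normalization. Their methods name mm10 for mouse samples, while the build listed for these samples in the submitters' processing notes is a human build; the gene identifiers in the table are those of mouse. All 24 columns were matched to samples by their titles.

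The 4 libraries of each mouse were summed, and genotypes were compared with the quasi-likelihood test of edgeR 4.0.16 in R 4.3.3, after TMM scaling and filterByExpr, with Benjamini-Hochberg adjustment over all genes tested. A DEG had an adjusted p under 0.05 and a log2 fold change above 1 in size. The study's methods name DESeq2, which was run as an alternative. Levels are CPM on totals scaled by TMM. Each set was also tested alone, and all 24 libraries were fitted with the mouse as a fixed term for differences between cDNA amounts and set letters. Single values were compared by two-sided exact permutation tests on log2(CPM + 0.1). Ratios of read rates have exact 95% intervals, which cover counting error only, since reads from PCR are not independent molecules. Positions were taken from the GENCODE annotation on mm10, and promoters from RefSeq on GRCm38.p6. Copies of transcript ends were sought with minimap2 2.31-r1302, and other steps used scipy 1.17.1, numpy 2.4.6 and pandas 2.3.3 in Python 3.11.15. The tests were run on simulated counts in which only well-read genes were changed, and by large folds. This does not cover genes with few reads such as Saa3, or changes near the threshold such as that of Serpina3n. For the difference by cDNA amount the simulation gave all genes the same spread.

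The 7 genes and the 19 gene lists (200 symbols, 1 of which has no row) were chosen with earlier results of these data known. The genes named are the 7, Il6, Il6ra, Il6st, Stat3, Socs3 and Gfap, at most 4 DEGs of each list with the largest fold change, and for each of the 7 that was tested the 2 genes of at least 1 CPM with the nearest profile over the mice. Other genes (Cp, Itih3, Ttr, Saa1, Saa2, Saa4, Serpina3c, Serpina3g, Steap1, Rgs5, S100a8, S100a9, Mpo, Elane, Ngp, Camp, Ltf, Retnlg, Cxcr2, Stfa2l1, Aldoc, Alb, Slc22a17, Lrp1, Tlr4, Tlr2, Tgfbr2, and those at 0 reads) were named after their values were seen. Nothing says that the mice came from separate litters, and same-numbered mice of the 2 genotypes were not treated as pairs. The alternatives were DESeq2 1.42.0, its size factors, a filter of at least 10 counts in each sample or none, same-numbered mice as a block, omitting each mouse in turn, thinning to equal totals, limma 3.58.1 (voom on 24 libraries) and other thresholds. TruSeq libraries and spike-ins are not analysed here.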

Additional observations from a re-analysis of the deposited data

How the results depend on the processing

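The settings tried gave 166 counts and 528 fold changes for comparison. Of the counts 133 stayed within 1.5 times the reported value and 33 did not; of the fold changes 475 kept direction and side of the threshold, 11 gained and 32 lost a call, and 10 reversed. Lrg1 was a DEG in the summed libraries in 13 of 13 settings and Lcn2 in 12 of 12. A2m was a DEG in none of 13, with log2 fold changes from 0.23 to 1.71. Saa3 kept its call in 6 of 10 settings and Serpina3n its lack of one in 8 of 13. Low depth limits Saa3, Hp and Steap4.

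With DEGs defined by an adjusted p under 0.1 and a log2 fold change above 1.5, 97 genes in place of 180 were DEGs in the summed libraries. With at least 10 counts in every sample, 1 of the 7 acute-phase genes was a DEG there, since Lcn2 and Saa3 were no longer tested, and the DEGs fell to 40 with 2 ng and 53 with 1 ng in set A and to 39 with 2 ng in set B. With no filter on low counts, 2 acute-phase genes were DEGs with 2 ng in each of sets A and B. After thinning to equal totals, 49 genes were DEGs with 2 ng in set A, and the acute-phase genes among DEGs numbered 1 with 1 ng in set A and 2 with 2 ng in set B. DESeq2 gave 186 DEGs and limma 193 in the summed libraries, with 3 acute-phase genes by each. Those by DESeq2 were Lrg1, Lcn2 and Saa3, and those by limma were Lrg1, Lcn2 and Serpina3n, with Saa3 not tested there. Thinning also left Saa3 untested and made Serpina3n a DEG.

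Leaving out each mouse gave 106 to 201 DEGs in the summed libraries (the fewest without GFAP-IL6 mouse 3) with 2 to 4 acute-phase genes among them. In set A it gave 46 to 102 DEGs with 2 ng and 52 to 115 with 1 ng, with 1 to 2 and 1 to 3 acute-phase genes. In set B it gave 45 to 114 DEGs with 2 ng and 45 to 113 with 1 ng, with 1 to 3 acute-phase genes in each. The fewest DEGs came without GFAP-IL6 mouse 3 in every set. The acute-phase genes that differed between 2 ng and 1 ng within mice numbered 0 to 1: Lrg1 lost this call without WT mouse 3 or any of the GFAP-IL6 mice. The cause was not tested.

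Small differences that did not pass any threshold changed sign. The genotype difference by cDNA amount for Lrg1 ran from -0.026 to 0.20 over the mice left out. That by set letter ran from -0.13 to 0.15 for Serpina3n and from -0.75 to 0.21 for Lcn2, and was -0.0060 and 0.0036 with limma. Lcn2 between 2 ng and 1 ng ran from -0.35 to 0.23.

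The replicate block, with same-numbered mice of both genotypes as a pair, gave 149 DEGs in the summed libraries with 2 acute-phase genes among them, and 59 DEGs with 2 ng in set B. Saa3 lost its call with the block (log2 fold change 3.08, adjusted p = 0.0553 by edgeR). The deviations of same-numbered mice from their group means correlated at -0.049, -0.0322 and -0.0335. Those of differently numbered mice correlated at -0.0803 to 0.127. Deviations from the mean of so few mice depend on each other, so these values cannot decide whether the numbers pair the mice.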

Other observations

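For each acute-phase gene tested, the genes of at least 1 CPM with the most similar profile over the 6 mice were sought among 13668 genes, as the root mean square difference of centred log2 levels. Nearest to Lrg1 were Csf2rb2, a cytokine receptor subunit, at 0.204 ± 0.0661 CPM in WT and 1.86 ± 0.761 CPM in GFAP-IL6 mice (SD, n = 3, difference 0.237), and Gfap (0.244). Serpina3n lay closest of all to its nearest gene, Capg, which encodes an actin-capping protein, at 2.26 ± 0.0538 and 4.55 ± 0.976 CPM (SD, n = 3, difference 0.0442). Next to it came C3ar1, the receptor for the complement fragment C3a (0.107).

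The nearest genes of Lcn2 were the interferon-induced Ifi204 (difference 0.436) and Tmem252 (0.466), and those of Saa3 were the complement receptor C5ar1 (0.377) and the Fc receptor Fcgr2b (0.502). These are wider differences than for Lrg1 and Serpina3n, and both genes have few reads. A2m was nearest to Lbp, the lipopolysaccharide-binding protein (0.223), and to Gm27403 (0.319). Lbp was at 1.04, 1.61 and 4.33 CPM in the WT mice and 1.79, 3.21 and 4.15 CPM in the GFAP-IL6 mice, so that, as for A2m, mouse 3 of each genotype was the highest. These profiles rest on 6 mice and on the genotype difference they share, and are given as a description.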
